A study of Mus musculus with 6 samples.

Results

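The NF-κB subunits and IκB proteins were examined in bone marrow macrophages (BMMs) that carried a wild-type or a mutant chimeric receptor. The set held 10 genes, chosen by name as all Rel-family subunits and several IκB proteins that bind them. Nfkbid, a further nuclear IκB protein, was counted among the other regulators. Every probe set whose annotation gave a single symbol, that of a member, was taken: 18 probe sets for 9 of the 10 genes, out of 18193 genes with such a probe set on the array. Nfkb1 was not analysed here. The probe set with the highest mean over the 6 arrays represented its gene, and the other probe sets are given beside it. All 9 genes passed the filter on low intensity, with 17 of their 18 probe sets; the remaining one, for Nfkbib, lay between 4.02 and 4.09 on all arrays.

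The cells of both groups came from c57BL/6 mice that lack both TNF receptors (TNFR1-/-R2-/-) and were infected with a retrovirus, so the receptor was carried by a viral vector. In the wild-type group (BM_wt, 3 arrays) the vector encoded the outer part of mouse TNFR1 joined to the transmembrane and inner parts of mouse RANK, the receptor that drives osteoclast formation. In the mutant group (BM_mutant, 3 arrays) the same receptor carried mutations that inactivate the IVVY motif of RANK. Infected cells were kept in puromycin (2 ug/ml) during 3 days of selection, and both groups were then given M-CSF at 44 ng/ml and TNFα at 10 ng/ml for 24 hours, so that TNFα acted through the chimeric receptor. RNA of 6 dishes was pooled for each array, and the work was done in 3 independent assays, taken here to be the replicate numbers of the titles. There was no array without TNFα, so the values compare the 2 receptors and do not show what the stimulus did. The values are intensities of Affymetrix Mouse Genome 430 2.0 arrays, on which brightness is not comparable between different probe sets.

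NF-κB factors are dimers of Rel-family proteins. In the classical pathway, dimers that contain RelA or c-Rel (Rel), usually with p50 from Nfkb1, are held in the cytoplasm by IκBα (Nfkbia), IκBβ (Nfkbib) and IκBε (Nfkbie), which are degraded when the IκB kinase complex phosphorylates them. In the alternative pathway, p100, the product of Nfkb2, is cut to p52, which acts with RelB. Nfkbia, Nfkb2, Relb and Bcl3 are known as NF-κB targets themselves, so their mRNA is often read as an output of the pathway. RANK signals through both branches, and mice without both p50 and p52 form no osteoclasts.

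Because several members are NF-κB targets, the sequence before their transcription start was searched for the κB consensus of NF-κB, on both strands and with overlapping matches counted. RefSeq promoter windows (build GRCm38.p6, 250 bases before to 50 bases after each start) were matched for 7 member genes by symbol, in 9 windows; Relb, Nfkbiz and Nfkb1 had no entry. The consensus was found in 7 of the 9 windows and in 5 of the 7 genes, against 4.51% of all 32851 windows and 5.14% of 27025 genes in the table. The consensus is GGG, a purine, any base, A or T, a pair of pyrimidines and CC. A relaxed form, with a purine as the third and any base as the sixth letter, was found in the same numbers of member windows and genes, against 11.2% of all windows and 12.6% of all genes. The second and the third Nfkb2 window overlap, and the match of the third is also in the second. The 250 bases before the start are shown for Nfkb2, the member with the largest difference between the receptors, for Nfkbia, the feedback inhibitor, and for Rela, which differed least. They lie at chr19:46304487-46304736 on the plus strand, chr12:55492648-55492897 on the minus strand and chr19:5637291-5637540 on the plus strand. Capitals mark bases of a match to the κB consensus.
Nfkb2: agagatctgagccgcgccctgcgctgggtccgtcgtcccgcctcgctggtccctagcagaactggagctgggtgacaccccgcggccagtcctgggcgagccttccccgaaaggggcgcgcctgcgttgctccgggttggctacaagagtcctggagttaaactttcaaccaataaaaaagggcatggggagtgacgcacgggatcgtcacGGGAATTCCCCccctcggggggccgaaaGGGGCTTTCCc
Nfkbia: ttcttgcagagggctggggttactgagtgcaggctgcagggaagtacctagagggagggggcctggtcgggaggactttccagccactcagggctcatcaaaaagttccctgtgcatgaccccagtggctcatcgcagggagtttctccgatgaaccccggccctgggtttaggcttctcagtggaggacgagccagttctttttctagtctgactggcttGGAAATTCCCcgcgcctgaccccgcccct
Rela: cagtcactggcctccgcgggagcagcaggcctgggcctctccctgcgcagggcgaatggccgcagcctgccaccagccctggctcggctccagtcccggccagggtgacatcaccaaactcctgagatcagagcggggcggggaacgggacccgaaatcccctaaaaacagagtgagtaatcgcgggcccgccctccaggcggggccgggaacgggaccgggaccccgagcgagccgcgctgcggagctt
The first Nfkb2 start had matches whose first bases lay 39, 38 and 11 bases before it, the first 2 overlapping on opposite strands. The Nfkbia window had one 29 bases before the start, and the Rela window had none. The Nfkbib window had none either.

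Shorter stretches around the matches are shown for the other members that had one. They lie at chr11:23771042-23771070 (minus strand) for Rel, chr17:45555585-45555612 (plus strand) for Nfkbie, chr7:19822735-19822762 (minus strand) for Bcl3 and chr19:46305696-46305723 (plus strand) at a later Nfkb2 start.
Rel: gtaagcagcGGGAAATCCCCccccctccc
Nfkbie: cagcaaacaGGGGGATTCCggaggggcg
Bcl3: cggcggcagGGGAAGTCCCgctgcccgg
Nfkb2, later start: ggtattttcGGGACTTTCCtaagcagca
Matches began 92 bases before the start in Rel and 106 bases before it in Nfkbie, and at base 3 after the start in Bcl3. A match is only a stretch of letters in these windows, and no binding was measured.

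The arrays were similar in brightness, with medians between 8.86 and 9.38. All 11 macrophage markers with a probe set were above the filter, and their summed intensity was 210720 to 229844 in the mutant and 212432 to 223432 in the wild type. Such a sum weighs the brightest markers most, with Lyz2 at 58008 to 68161, and hides dimmer ones such as Fcgr1, at 1062 to 9855. The osteoclast markers moved with the receptor: 8 of 10 passed the filter, and the brightest probe sets of all 8 were lower in the mutant in every assay. For Calcr and Ocstamp this was fixed by the filter, which they passed through their wild-type arrays alone. Their mutant arrays were at 6.38 to 6.59 and at 4.47 to 4.64. A dimmer probe set of Atp6v0d2 was higher in the mutant in assay 2, by 0.57 in log2. The sum over all 10 was 1128 to 1892 in the mutant against 8587 to 27452 in the wild type. Stromal markers moved with the assay, summing to 4695 and 3393 in assay 3 of the mutant and the wild type and to at most 169 in the other arrays. Those that passed the filter also ran with the receptor, higher in the mutant where the members were mostly lower. All 5 were higher on the means and 4 of them in every assay, with a median log2 difference of 0.36. In assay 1 these 4 were under 16 on both arrays and differed by 0.0011 (Col3a1), 0.025 (Col1a2), 0.049 (Postn) and 0.23 (Sparc). Markers below the filter did not share a direction. In assay 3 the log2 difference was -1.94 for Dcn and -0.68 for Pdgfra, both through the third wild-type array alone, but 0.27 for Pdgfrb. Of the dendritic-cell markers, 6 of 7 were under 16 on all arrays and the last, Ccr7, reached 103 on the third wild-type array alone; all 7 T-cell markers, 6 of 7 B-cell markers and 6 of 7 neutrophil markers were under 16 on all arrays. The exceptions were Blnk, at 4129 to 6577, and S100a8, at 128 to 677 and lower in the mutant in 2 of 3 assays. The part of these cells in the results on NF-κB genes was not tested, and in pooled RNA fewer cells of a type and less RNA per cell cannot be told apart.

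The 2 subunits of the alternative pathway had lower mRNA with the mutant receptor in every assay. The 2 measured subunits of the classical pathway, of which Rel was dim, did not. No member passed the test over all probe sets. The test was limma on log2(intensity + 16) over 22497 probe sets, with Benjamini-Hochberg adjustment; it called 0 probe sets at an adjusted p of 0.05 (0% of the probe sets), also with the assay as a replicate block (0%). The smallest adjusted p was 0.99998 without and 0.0792 with the replicate block. At an unadjusted p of 0.05, limma counted 146 probe sets lower and 52 higher in the mutant without the block, and 626 lower and 563 higher with it. The log2 differences below are mutant minus wild type on the log2(intensity + 16) scale, each with its standard error from that test and n = 3 arrays a group.

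**Figure D1:**
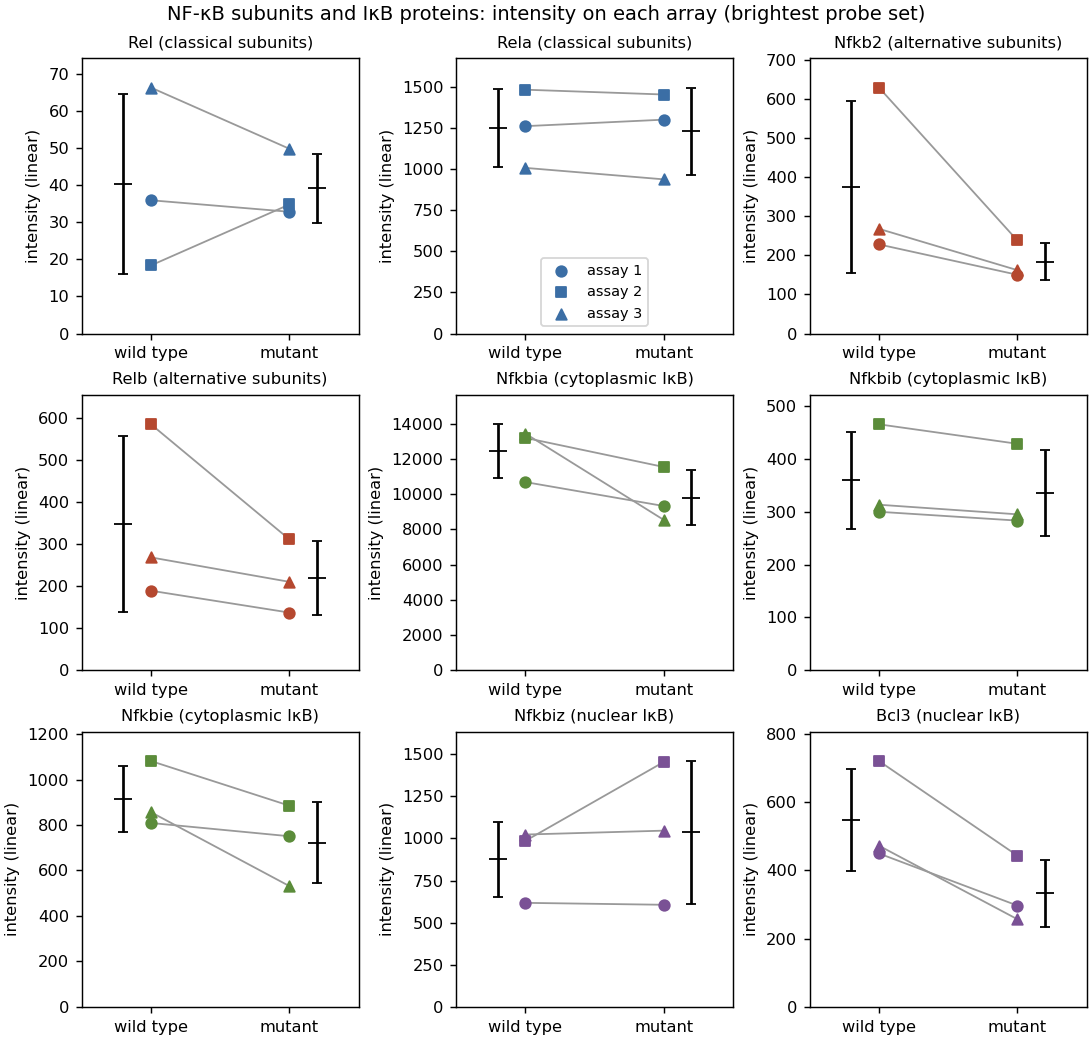
Intensity (linear scale, each vertical axis from 0) of the brightest probe set of each of the 9 measured members, with 1 symbol for each assay, a line joining the 2 arrays of an assay, and a bar at the mean ± SD of each group (n = 3). The lines of Nfkb2, Relb, Nfkbia, Nfkbib, Nfkbie and Bcl3 run down from wild type to mutant in all 3 assays, and Bcl3 is the only one of the 9 with every mutant array below every wild-type array.

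Nfkb2 encodes p100, which both restrains RelB and gives rise to p52. Its intensity (brightest probe set) was 151, 238 and 162 in the mutant and 228, 631 and 268 in the wild type of assays 1, 2 and 3. The mutant array was the lower one in each assay, but the groups overlapped, since mutant array 2 (238) lay above wild-type array 1 (228). Mutant arrays averaged 184 ± 47.7 (SD, n = 3) and wild-type arrays 376 ± 222 (SD, n = 3), and the log2 difference was -0.86 ± 0.42 (SE), a 1.81-fold lower level. Within assays the log2 difference was -0.55, -1.35 and -0.67. The adjusted p of limma was 0.99998, and 0.859 with the replicate block, under which the 95% interval was -1.39 to -0.33. A second Nfkb2 probe set gave 117, 183 and 110 in the mutant and 201, 274 and 137 in the wild type, a log2 difference of -0.51, lower in each assay as well. The wild-type array of assay 2 was the highest Nfkb2 value of the series in both probe sets, and without it the difference of the first was -0.43.

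Relb encodes the partner of p52. Its intensity was 137, 311 and 210 in the mutant and 189, 585 and 268 in the wild type. It followed Nfkb2: lower in the mutant in each assay, highest in assay 2 in both groups, and with overlapping groups. Mutant arrays averaged 220 ± 87.5 (SD, n = 3) for Relb and wild-type arrays 348 ± 209 (SD, n = 3). The log2 difference of Relb was -0.54 ± 0.49 (SE), 1.46-fold lower, and within assays it was -0.42, -0.88 and -0.33. The adjusted p was again 0.99998 in limma and 0.859 with the replicate block, with a 95% interval of -0.93 to -0.15 under the block. Without the second wild-type array the Relb difference was -0.10.

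Rela encodes p65, the main activating subunit of the classical pathway. It was at 1301, 1454 and 938 in the mutant and 1261, 1483 and 1008 in the wild type. Each assay had its own level, and the 2 receptors were close within it: the log2 differences were 0.04, -0.03 and -0.10. The overall log2 difference of Rela was -0.03 ± 0.23 (SE), with a 95% interval of -0.25 to 0.19 under the replicate block. The assay took 98.2% of the variance of Rela over the 6 arrays and the receptor 0.34%, against 47.8% and 44.8% for Nfkb2.

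Rel encodes c-Rel, a subunit of macrophages and lymphocytes. Its intensity was 32.8, 34.8 and 49.8 in the mutant and 35.9, 18.3 and 66.2 in the wild type. The order of the 2 receptors differed between assays, with log2 differences of -0.09, 0.56 and -0.32. The overall log2 difference of Rel was 0.05 ± 0.34 (SE), with a 95% interval under the block of -0.51 to 0.61, the widest among the brightest probe sets. The sign of Rel turned without the second wild-type array.

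The rule asked for the contrast of the 2 branches, which was taken as the median log2 difference of the alternative subunits (Nfkb2 and Relb) minus that of the classical ones (Rel and Rela), with no test. It was -0.71 on the group means, and -0.47, -1.38 and -0.29 in assays 1, 2 and 3. With Rela alone as the classical subunit it was -0.67. Against Rela, each alternative subunit had the same sign in every assay: Relb minus Rela was -0.47, -0.85 and -0.23, and Nfkb2 minus Rela was -0.60, -1.32 and -0.57. The size rested largely on 1 array, since without the second wild-type array the contrast was -0.19.

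**Figure D2:**
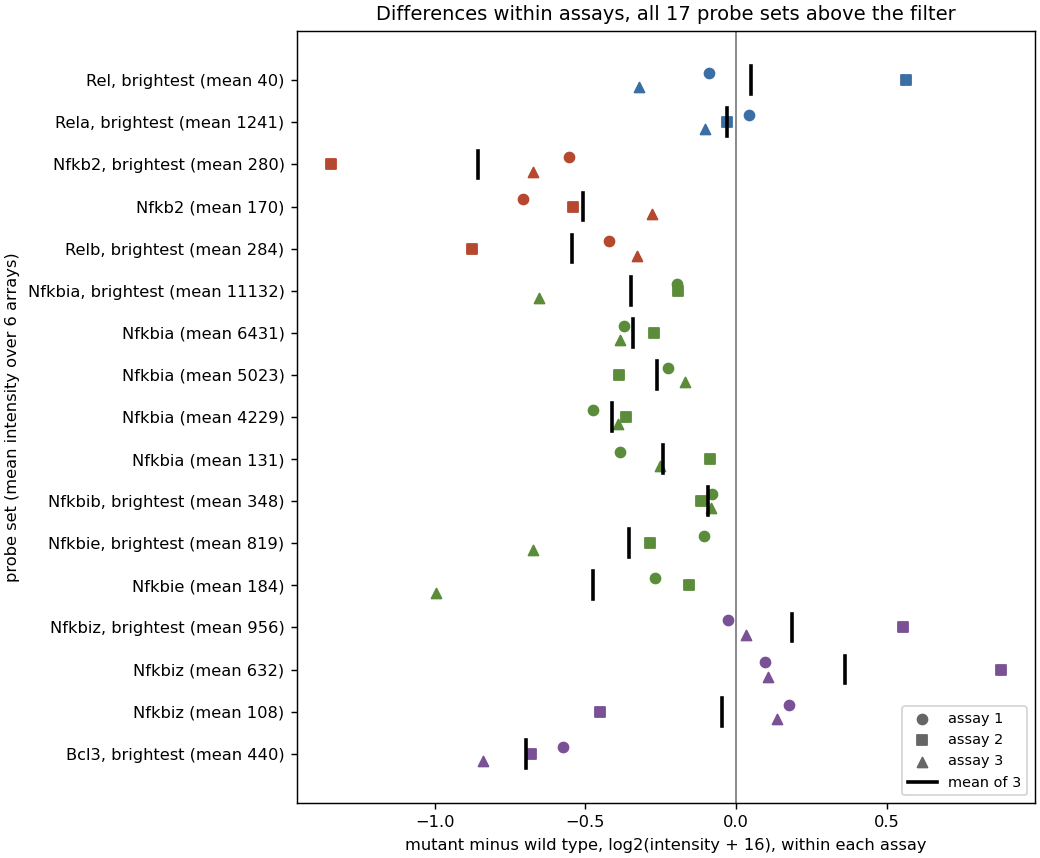
Log2 difference (mutant minus wild type, log2(intensity + 16)) of the 17 member probe sets above the filter, with 1 symbol for each assay and a bar at the mean of the 3. All probe sets of Nfkb2, Relb, Nfkbia, Nfkbib, Nfkbie and Bcl3 lie below 0 in every assay, Rela lies close to 0, and Rel and the 3 Nfkbiz probe sets do not share a direction.

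Nfkbia encodes IκBα, the inhibitor that NF-κB induces in its own negative feedback. Its brightest probe set gave 9334, 11555 and 8545 in the mutant and 10696, 13209 and 13453 in the wild type. The mutant was the lower array in each assay, and only mutant array 2 lay above a wild-type array, that of assay 1. The log2 difference of Nfkbia was -0.35 ± 0.16 (SE), 1.27-fold lower, and within assays it was -0.20, -0.19 and -0.65. The other 4 Nfkbia probe sets differed by -0.34, -0.26, -0.41 and -0.24, each lower in the mutant in every assay. One of them had all mutant arrays (5168, 6286 and 5574) below all wild-type arrays (6685, 7593 and 7280). All 5 had an adjusted p of 0.99998 in limma. Since they read 1 transcript from the same RNA, they are no independent replicates.

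Nfkbie encodes IκBε, and its level was 751, 885 and 531 in the mutant and 809, 1081 and 856 in the wild type. It was lower in the mutant in each assay, most so in assay 3, with overlapping groups. The log2 difference of Nfkbie was -0.35 ± 0.23 (SE), and -0.11, -0.28 and -0.67 within assays; its other probe set gave -0.47. Nfkbie and Nfkbia had the closest profiles of any 2 members, with a root mean square difference of 0.15 between their centred log2 values over the 6 arrays. This measure is not scaled, so members that vary little lie close to each other. Rela and Nfkbie came next at 0.20, though Rela differed little between the receptors.

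Nfkbib encodes IκBβ, the slower-acting inhibitor that is not a strong feedback target. It was at 283, 429 and 295 in the mutant and 300, 466 and 314 in the wild type, and the 2 arrays of an assay lay close together. The log2 difference of Nfkbib was -0.09 ± 0.24 (SE). It was -0.08, -0.11 and -0.08 within assays, with a 95% interval under the replicate block of -0.30 to 0.11. Within assays Nfkbia was below Nfkbib by -0.12, -0.08 and -0.57 in log2 difference, and Nfkbie by -0.03, -0.17 and -0.59. By these brightest probe sets the inhibitors stood apart mainly in assay 3. For Nfkbia this depended on the probe set. Its other probe sets differed by -0.37, -0.23, -0.47 and -0.39 in assay 1. They differed by -0.27, -0.39, -0.37 and -0.09 in assay 2, and by -0.38, -0.17, -0.39 and -0.25 in assay 3. The other Nfkbie probe set had its largest difference in assay 3 too.

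The 2 nuclear IκB proteins among the members, which act on NF-κB dimers at DNA, did not move together. Bcl3, which binds p50 and p52 homodimers, was at 297, 443 and 257 in the mutant and 449, 720 and 472 in the wild type. It was the only member whose brightest probe set did not overlap between the groups. Mutant arrays averaged 332 ± 98.0 (SD, n = 3) for Bcl3 and wild-type arrays 547 ± 150 (SD, n = 3). The log2 difference of Bcl3 was -0.70 ± 0.28 (SE), 1.62-fold lower, and -0.57, -0.68 and -0.84 within assays. Its unadjusted p in limma was 0.0498, and 0.00163 with the replicate block, with a 95% interval of -0.95 to -0.44, but the adjusted p was 0.99998 and 0.859. The receptor took 56.3% of the variance of Bcl3 over the 6 arrays, the largest share among the members.

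Nfkbiz encodes IκBζ, a co-activator of a part of the NF-κB targets in macrophages. It was at 607, 1454 and 1047 in the mutant and 618, 986 and 1024 in the wild type. Only assay 2 separated the receptors, with the mutant higher. The log2 difference of Nfkbiz was 0.19 ± 0.38 (SE), and -0.03, 0.55 and 0.03 within assays. Its 3 probe sets disagreed: the other 2 gave 0.36, higher in the mutant in every assay, and -0.05, so no direction is given for it. Bcl3 minus Nfkbiz was -0.55, -1.23 and -0.87 in assays 1, 2 and 3.

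Counted together, 6 of the 9 members (Nfkb2, Relb, Nfkbia, Nfkbib, Nfkbie and Bcl3) were lower in the mutant in every assay, as were 12.0% of the 10372 genes tested. None was higher in every assay, as were 14.5% of the genes. Without assay 3, the one with stromal markers, 6 of 9 were lower in both remaining assays, as were 24.4% of the genes. All mutant arrays lay below all wild-type arrays for 1 of 9 (Bcl3), and for 1.96% of the genes.

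At an unadjusted p of 0.05 in limma, 1 of 9 members (Bcl3) was lower, against 0.935% of the genes; with the replicate block it was 3 of 9 (Nfkb2, Relb and Bcl3), against 3.07%. The median log2 difference of the 9 was -0.35, and -0.11, -0.19 and -0.33 in assays 1, 2 and 3. The median of all genes was 0.01, and -0.0013, 0.015 and 0.00093 in the 3 assays. The median of the members was -0.15 without the third mutant array and -0.23 without the second wild-type array. The 8 osteoclast markers above the filter were lower in every assay too, though Calcr and Ocstamp passed it through wild-type arrays alone. Of the 5 stromal markers above it, 4 were higher in every assay. The part of either in these counts was not tested.

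The genes around these proteins were described by 4 lists. Of the upstream kinases and adaptors, 20 of 23 were tested: 9 were lower and 11 higher on the means, and the median was 0.01. In every assay 4 were lower and 1 higher, against 12.0% and 14.5% of all genes tested. All mutant arrays lay below all wild-type arrays for 2 of the 20, against 1.96% of the genes. Chuk, Traf3 and Ripk1 were not analysed here. None passed the adjusted test. The 4 with the smallest p were Traf2, Malt1, Birc2 and Birc3, which act together near TNF-family receptors or in antigen-receptor signalling, and the 3 of them other than Malt1 belong to the complex that degrades NIK, the kinase of the alternative pathway. Traf2 was at 190, 184 and 212 in the mutant and 259, 277 and 294 in the wild type, with no overlap and a log2 difference of -0.47 ± 0.10 (SE). Malt1 was at 269, 256 and 251 against 545, 354 and 1096, a log2 difference of -1.16 ± 0.41 (SE), also with no overlap. Birc2 and Birc3 were lower in every assay, by -0.78 and -0.74, with overlapping groups. In the kinases themselves, the brightest probe set differed by 0.02 for Map3k14 (NIK) and 0.03 for Ikbkb on the log2 scale. For Ikbkg, the regulatory subunit of the IκB kinase complex, it differed by 0.06. The dimmer Ikbkg probe sets were all lower in the mutant on the means, by -0.02 to -0.33. The brightest of these (mean 256, against 313 for the first) had all mutant arrays below all wild-type arrays.

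Of the other inhibitors and regulators, 20 of 22 were tested, with 14 lower, 6 higher and a median of -0.03. In every assay 5 were lower, against 12.0% of all genes tested, and none was higher, against 14.5%. All mutant arrays lay below all wild-type arrays for 3 of the 20, against 1.96% of the genes. None passed the adjusted test. Tnip1, which works with A20, was at 748, 802 and 742 in the mutant and 810, 1174 and 1181 in the wild type, a log2 difference of -0.44 ± 0.17 (SE). The groups of Tnip1 did not overlap, though the arrays of assay 1 were close. The other 3 with the smallest p, Nkiras1, Nfkbid and Cyld, differed by -0.17, -0.26 and -0.20. The groups of Nkiras1 and Nfkbid did not overlap either, and those of Cyld did.

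Of the target genes of the classical pathway, 22 of 31 were tested, with 15 lower, 7 higher and a median of -0.31. In every assay 10 were lower, against 12.0% of all genes tested, and none was higher, against 14.5%. All mutant arrays lay below all wild-type arrays for 2 of the 22, Mmp9 and Traf1, against 1.96% of the genes. None passed the adjusted test. Mmp9 was at 93.1, 36.6 and 370 in the mutant and 3656, 1892 and 7992 in the wild type, 29.4-fold lower; it is a matrix protease that is also among the osteoclast markers, so it is no separate reading of NF-κB here. Traf1, an adaptor of TNF receptors, was at 47.7, 23.7 and 61.0 against 215, 227 and 815, 6.22-fold lower. Icam1 and Gadd45b were lower in every assay, by -0.48 and -0.46, with overlapping groups. The targets of the alternative pathway had 9 of 12 genes with a probe set and 4 above the filter, 3 lower and 1 higher, with a median of -0.10. Of these, Madcam1 and Tnfsf13b were at most 21.6 on any array, Icosl differed by 0.19, and Cxcl13 was at 12.0, 7.53 and 108 in the mutant and 39.5, 17.9 and 394 in the wild type. Cxcl13 was lower in the mutant in each assay and highest in assay 3 in both groups.

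**Figure D3:**
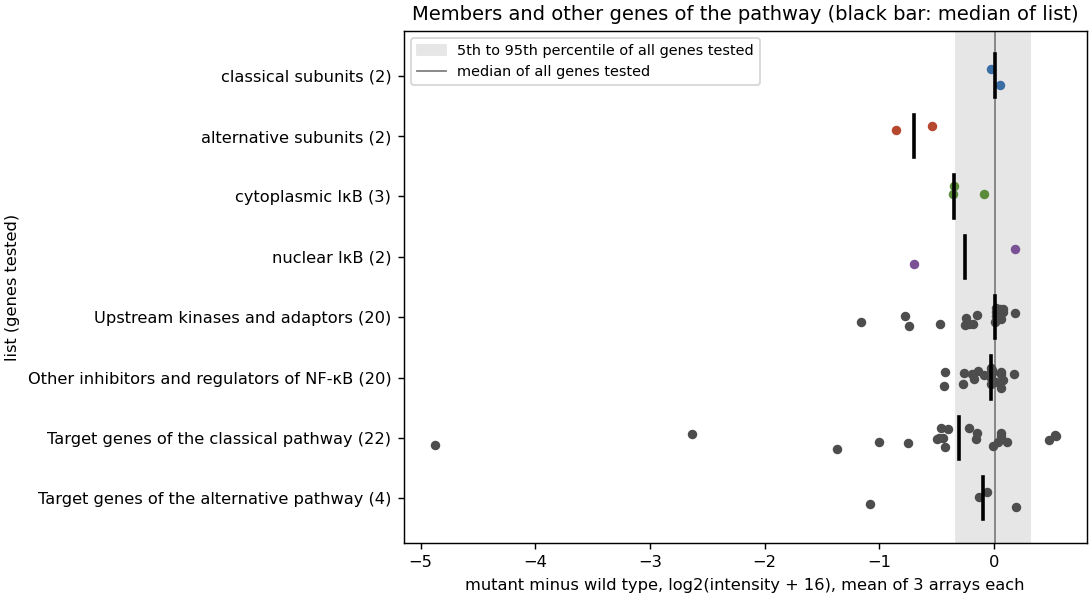
Log2 difference (mutant minus wild type, log2(intensity + 16)) of every tested gene in the member classes and the 4 pathway lists, 1 point for each gene, with a bar at each list's median; the shaded band runs from the 5th to the 95th percentile of all 10372 genes and describes single genes, not medians of lists. The alternative subunits and Bcl3 lie below the band, Nfkbia and Nfkbie lie just below its edge, and the classical subunits lie near 0. The targets of the classical pathway have a median of -0.31 with Mmp9 far below the others.

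For the 3 members with the largest SD over the 6 arrays, the genes with the most similar profile were read by the root mean square difference of centred log2 values. For Nfkb2 they were Clec4a2 (0.20), Relb (0.23) and Arrdc4 (0.24). For Relb they were Pde4b (0.15), Endog (0.18) and Arrdc4 (0.18), and for Bcl3 they were Hvcn1 (0.14), Smurf1 (0.16) and Ppie (0.17). With 6 arrays from 3 assays, such closeness holds the level of each assay as well as the receptor.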

How the data were processed

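RNA of BMMs with the wild-type or the mutant receptor was measured on 6 Affymetrix arrays, 3 for each group. The deposited values are intensities, 1 for each probe set and array, already summarised by the authors; GCOS and GCRMA appear in the submitters' processing notes, with no version or order. The number of arrays limits the precision. Titles gave each array's group and number. The 64 control probe sets were left out, and the 22497 of 45037 others that were above the median of their own array on at least 3 of 6 arrays were tested with limma 3.58.1 in R 4.3.3 on log2(intensity + 16), with Benjamini-Hochberg adjustment over all of them. Probe sets were named from the platform annotation, which gave 34945 of them 1 symbol, 932 several and 9160 none. The script was checked on simulated data.

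The labels name 3 independent assays. Deviations from the group means correlated at 0.797, 0.671 and 0.845 between arrays of the same number and at -0.618 to -0.0138 otherwise, so same-numbered arrays were treated as pairs, and the fit with a replicate block is given beside the unblocked one. Whether each assay had its own mice is not stated, so p-values measure the spread between these preparations. Where a median or count is over genes, each gene is its brightest probe set.

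The members and gene lists were chosen with earlier results of these data known. Named beside the members were, from each pathway list, up to 4 genes with the smallest p, and, for each of the 3 members with the largest SD over the arrays, the 3 genes with the closest profile. Alternatives were other pseudocounts (1 and 64), filters and normalizations (quantile, equal medians), a fixed and a random block, the mean of a gene's probe sets, and leaving out each array or assay. Promoter windows came from RefSeq (GRCm38.p6).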

Additional observations from a re-analysis of the deposited data

How the results depend on the processing

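Of the 9 members, 0 passed the adjusted test under any alternative run; the random replicate block called 1 probe set of the whole table, no member, and the fixed replicate block called 0. With the replicate block, pseudocounts of 1 and 64, the other filters, quantile normalization, equal array medians and the mean of probe sets, each member that could be tested kept its sign (Rel was below the filter at the 70th percentile). The count of members lower in every assay, which takes no block, was 6 under each of the pseudocounts, filters and normalizations and with the mean of probe sets, and 6 to 7 without an assay. Leaving out 1 array or 1 assay gave a members' median of -0.47 to -0.15 (-0.19 without assay 3 with the replicate block) and a branch contrast of -1.02 to -0.19. Nfkb2 (-1.13 to -0.43), Relb (-0.88 to -0.10), Nfkbia (-0.47 to -0.19), Nfkbie (-0.51 to -0.15) and Bcl3 (-0.92 to -0.49) kept their sign. The sign turned for Rel (-0.26 to 0.37, and -0.21 without assay 2 with the replicate block), Rela (-0.17 to 0.15, and 0.0078 without assay 3 with the block), Nfkbib (-0.27 to 0.10) and Nfkbiz (-0.10 to 0.52, and -0.046 in its dimmest probe set). The cause was not tested. Other probe sets of a member, Rela alone as the classical subunit, and the count of members lower in every assay with all its alternatives were chosen after seeing the data.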

Other observations

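Ccl22, a chemokine listed among the targets of the alternative pathway, was below the filter and had an intensity of 53.4 on the third wild-type array and of at most 5.0 on the other 5 arrays. It was looked at after its values were seen. Ccr7 was at 103 on the same array, while Relb (268) and Nfkb2 (268) there were not the highest values of their gene.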
